A study of Mus musculus with 8 samples.

Results

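Cultured mouse embryonic fibroblasts (MEF), cells of connective tissue, were compared with and without a functional Taf4 gene by mRNA sequencing. The comparison used 4 of the 8 libraries of the study, chosen by genotype label: 2 of the knockout line (Taf4 -/-) and 2 of the control line (Taf4 loxp/-). The control line carries 1 floxed and 1 null allele, and another label field calls it wild type. All cells are of strain C57BL/6 and were grown in one medium with serum, and the labels state no treatment. The other 4 libraries come from clones of the knockout line that carry a human TAF4 transgene, either full length (Tg:hTAF4 wt, 2 clones) or lacking the TAFH domain (Tg:hTAF4 Δ, 2 clones). They give the spread between clones of 1 genotype, and their levels are set beside some of the results. Each genotype is a cell line of its own, so Taf4 loss and other differences between the lines cannot be told apart. Levels are in FPKM, the fragments counted per kilobase and per library total. Differences are knockout minus control in log2(FPKM + 1), a scale on which low genes appear to differ less than they do.

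TAF4 is a subunit of TFIID, the general transcription factor that binds core promoters and helps to place RNA polymerase II at the start of genes. It pairs with TAF12 inside the complex, and activators, among them the E proteins named in the title of the series, can contact it through its TAFH domain. Taf4b encodes a paralog that can take its place in TFIID.

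The steps between low FPKM values correspond to about 14810000 fragments in each knockout library, against 17260000 and 17300000 in the control libraries. Sampling noise was larger than the difference between the knockout libraries and larger than that between the control libraries. Among genes of 2 to 7 fragments, where reads drawn independently give a chi-square of 1 a gene, the value was 0.567 ± 0.0282 (SE) for the knockout pair and 0.721 ± 0.0306 (SE) for the control pair. It was 1.38 and 1.77 between the 2 clones of the full-length and of the TAFH-deleted form. Each pair was therefore averaged and counted as 1 sample, and the difference between knockout and control has no replicate check of its own. The 2 values of a pair therefore show neither the full sequencing noise nor the spread between cultures.

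Taf4a, the mouse Taf4 gene (chr2:179646851-179711351, mm9), had 12.5 and 12.4 FPKM in the knockout libraries and 11.1 and 11.5 FPKM in the control libraries. Its transcript thus did not separate the genotypes, and the sources used here do not say which exons were removed. The level is therefore no check of the labels. Taf4b had 2.10 and 1.95 FPKM in the knockout libraries and 2.31 and 2.64 FPKM in the control libraries, a difference of -0.20 that turned to 0.15 under quantile normalization. The fibroblast identity of both lines was checked on 12 markers, of which 11 passed the filter on low values. Vim, the intermediate filament of mesenchymal cells, had 140 FPKM in both knockout libraries and 120.2 and 120.5 FPKM in control. Col1a1, a chain of the main fibrillar collagen, had 131 FPKM in both knockout libraries and 113 and 114 FPKM in the control libraries. Vim had 92.7% and Col1a1 93.9% of possible read start positions in use, and no direction is read from their levels. The summed level of the 12 markers was 803 and 807 FPKM in the knockout libraries and 883 and 881 FPKM in the control libraries. Of the 11 tested 7 were lower in the knockout, among them S100a4, Prrx1 and Twist2, and 4 were higher. Over all genes tested 54.9% were lower. The 4 higher markers were Vim, Col1a1, Col1a2 and Col3a1. Col1a2 had 91.7% and Col3a1 82.6% of positions in use, so no direction is read from these 4. Thy1 was at or near 0 in all 4 libraries, and Pdgfra, a receptor for PDGF ligands, had 17.4 and 17.3 FPKM in knockout, against 51.3 and 52.2 FPKM in control. Of 14 epithelial markers 12 were under 1 FPKM in all 4 libraries, among them Epcam, Krt5, Krt8 and Cldn7 at 0, and Krt19 and Krt7 lay between 1.47 and 4.36 FPKM. The list summed to 6.45 and 5.18 FPKM in knockout and 6.4 and 6.35 FPKM in control. Of 10 endothelial markers 9 were under 1 FPKM, with Cldn5, Emcn and Tie1 at 0, and Egfl7 had 4.43 and 3.80 FPKM in knockout and 7.79 and 8.97 FPKM in control. The endothelial list summed to 4.84 and 4.204 FPKM in knockout and 8.29 and 9.59 FPKM in control. Of 14 blood cell markers 11 were under 1 FPKM, with Cd3e, Emr1 and Tyrobp among those at 0. Above that level were Cd14, with 10.3 and 11.5 FPKM in knockout and 8.20 and 8.18 FPKM in control, Cd68, with 2.10 and 2.02 against 3.03 and 3.38 FPKM, and Lyz2, with 1.03 and 1.11 against 2.99 and 3.998 FPKM. The blood list summed to 13.8 and 15.2 FPKM in knockout and 15 and 16.2 FPKM in control. The part of other cell types in the results was not tested.

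More genes were far below control than far above it in the knockout. Of 12025 genes tested, 693 (5.76%) lay 2-fold or more below control in the knockout and 96 (0.798%) lay 2-fold or more above it. Past 4-fold there were 123 lower and 11 higher genes, and past 8-fold 32 lower and 1 higher. By any amount, 6597 genes (54.9%) were lower and 5428 (45.1%) higher. The median difference over all genes was -0.03. In 5964 genes (49.6%) both knockout libraries lay below both control libraries, and in 4842 (40.3%) both lay above, so libraries that do not overlap are the rule here. In these bulk libraries fewer cells of a type and less RNA per cell cannot be told apart.

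**Figure D1:**
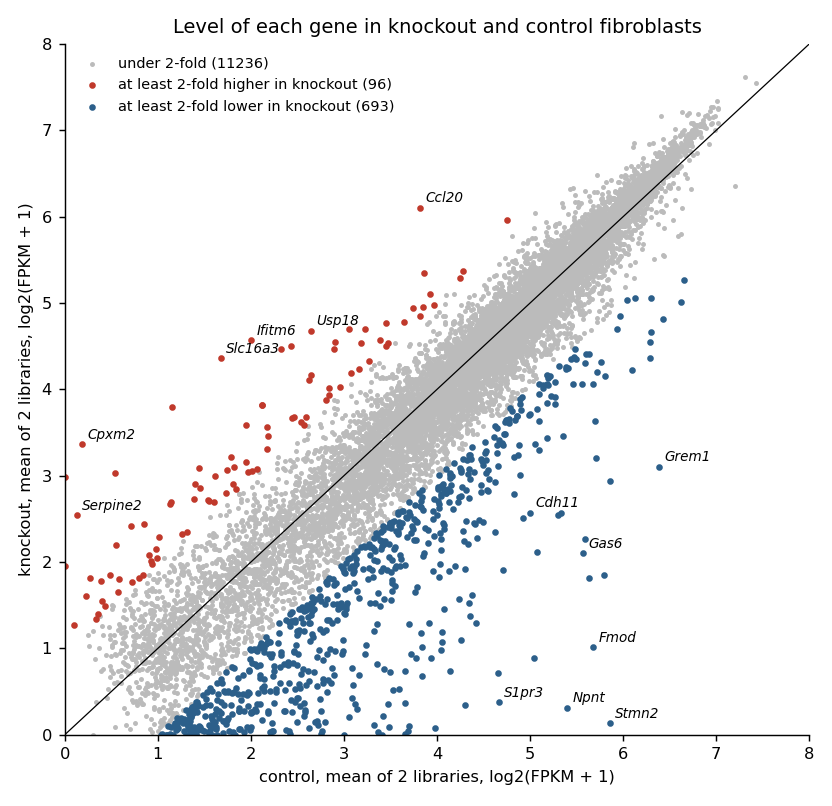
Level of each of 12025 genes in the control (horizontal axis) and in the knockout (vertical axis), both as log2(FPKM + 1) of the mean of 2 libraries. Blue marks the 693 genes past 2-fold on the lower side in the knockout and red the 96 on the higher side; the low blue points at the bottom include Stmn2, Npnt and S1pr3.

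Many of the lower genes were under 1 FPKM in the knockout. Of the 693, 274 were under 1 FPKM in both knockout libraries, and of the 96 higher genes 24 were under 1 FPKM in both control libraries. At least 5 FPKM in one line and under 0.5 FPKM in the other was seen in 36 genes that were low in the knockout and in 3 that were low in the control. Of all 789 genes at least 2-fold different (6.56%), 782 differed by more than the 2 full-length rescue clones did from each other and 641 by more than the 2 TAFH-deleted clones did. The TAFH-deleted clones were at least 2-fold apart in 923 genes, the full-length clones in 39. Because the 789 genes were chosen for a large difference, the count of 782 was largely set by that choice. Neither count is a check of the differences, and the same counts over all genes were not made.

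No gene passed the test across all genes. With the spread taken from the rescue clones, limma called 0 of 12025 genes (0.0%) at an adjusted p of 0.05. The smallest adjusted p was 0.128, and 1108 genes had an unadjusted p under 0.05. The authors' deposited table, from Cuffdiff, calls 7557 of 14051 transcripts (53.8%), 4374 lower and 3183 higher in the knockout. Leaving out 1 TAFH-deleted clone, which is no part of the contrast, gave 1717 lower and 995 higher calls without clone 1 and 1660 and 1001 without clone 2. All gene differences below are therefore values, not calls.

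The difference also moved with level. In the lowest of 8 equal groups of genes by level the median difference was -0.28 and 65.1% of genes were lower, and in the highest group it was 0.12 and 22.8% were lower. The highest group had a median of 47.6% of possible read start positions in use, and the most covered gene 96.7%. For a transcript of 2 kilobases, 1 fragment at every position corresponds to 150 FPKM in the knockout and 129 FPKM in the control. Whether that limit moves the FPKM of abundant genes was not tested. Values of abundant genes below stand beside that median of 0.12.

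**Figure D2:**
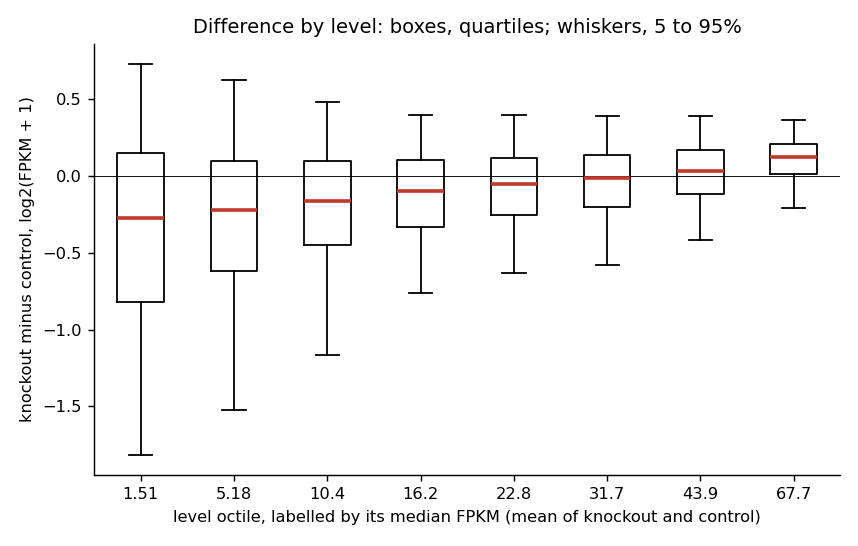
Difference between knockout and control, in log2(FPKM + 1), for 8 equal groups of genes ordered by level, each labelled on the horizontal axis with its median FPKM. Boxes span the quartiles with the median in red and whiskers the 5th to 95th percentile; the median runs from -0.28 in the lowest group to 0.12 in the highest.

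Stmn2 lay furthest below control. This gene (chr3:8509527-8561604, mm9) encodes stathmin-2, a microtubule regulator of neurons, and had 0.0397 and 0.159 FPKM in the knockout libraries and 57.1 and 56.6 FPKM in the control libraries. The knockout values rest on 1 and 4 fragments, against 1675 and 1664 in control, and the difference was -5.72 ± 0.32 (SE from the rescue clones, limma adjusted p = 0.128). Npnt (chr3:132545659-132613255) encodes nephronectin, a matrix ligand of integrins. It had 0.214 and 0.273 FPKM in the knockout libraries and 41.2 FPKM in each control library, a difference of -5.08. Fmod (chr1:135934092-135944854) encodes fibromodulin, which binds collagen fibrils, and it had 0.941 and 1.09 FPKM in knockout and 50.4 and 49.8 FPKM in control. S1pr3 (chr13:51503987-51518166), a receptor for sphingosine 1-phosphate, had 0.316 and 0.284 FPKM in knockout and 24.4 and 24.2 FPKM in control. The knockout level of these genes was near or under 1 FPKM, and libraries that do not overlap were a condition for naming them.

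The next of the 15 genes lowest against control differed by -4.15 to -3.41. Scara5, a ferritin receptor, had 0.226 and 0.320 FPKM in knockout and 18.9 and 18.4 FPKM in control. Dcn, which encodes the proteoglycan decorin, had 0.642 FPKM in both knockout libraries and 23.98 and 24.43 FPKM in control. Vsig1 (chrX:137442147-137474011), a surface protein of the immunoglobulin family, had 0.0540 and 0.0593 FPKM in knockout and 14.9 and 14.7 FPKM in control. All 3 genes were under 1 FPKM in both knockout libraries. Col2a1, the collagen of cartilage, had 2.69 and 2.33 FPKM in knockout and 48.2 and 48.9 FPKM in control. Gas6, a ligand of the Tyro3, Axl and Mer receptor kinases, had 2.996 and 3.59 FPKM in knockout and 47.2 and 45.8 FPKM in control. Col2a1 and Gas6 were thus above 2 FPKM in the knockout but far below control. The other 3 genes were at or near 0 in the knockout. Gpc6, a cell surface glypican, had 0.0103 FPKM in one knockout library and was at 0 in the other, against 11.9 and 11.4 FPKM in control. Edil3, an integrin-binding matrix protein, had 0.0659 and 0.0791 FPKM in knockout and 11.8 and 12.1 FPKM in control. Sprr1a, a precursor of the cornified envelope of skin, was at 0 in both knockout libraries and at 8.11 and 11.2 FPKM in control.

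Kctd12, Slit3 and Angptl7 share their locus with another gene of the table. The microRNA genes beside Kctd12 and Slit3 added nothing to the sum of the locus, while for Angptl7 the sum with its neighbour differed by -2.09 in place of -3.94. Kctd12, an auxiliary subunit of GABA-B receptors, had 0.819 and 0.900 FPKM in knockout and 32.0 FPKM in each control library, in a locus shared with Mir5130. Slit3, a repulsive axon guidance ligand, had 0.0141 and 0.0423 FPKM in knockout and 12.03 and 11.76 FPKM in control, in a locus shared with Mir218-2. Angptl7, an angiopoietin-like secreted protein, had 2.87 and 2.33 FPKM in knockout and 54.7 and 54.0 FPKM in control, and its locus with Mtor summed to 16.8 and 15.9 against 72.8 and 72.5 FPKM. The same locus sharing holds for Omd, Plod2, Cd34, Ccne2, Pfkp, Taf5 and Sox2, named below.

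**Figure D3:**
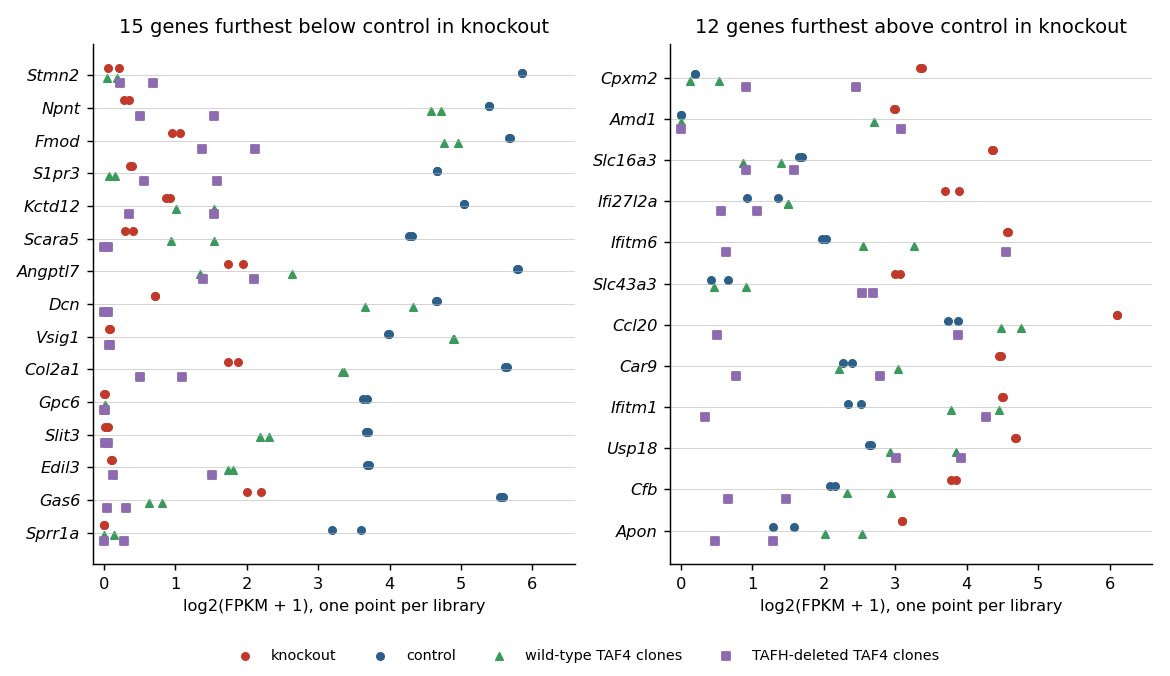
Levels, in log2(FPKM + 1) with 1 point per library, of the 15 genes furthest below and the 12 genes furthest above control in the knockout. Knockout (red) and control (blue) points do not overlap, which was a condition for choosing these genes; clones with full-length (green) and TAFH-deleted (purple) human TAF4 are shown for comparison, and Vsig1, Npnt and Fmod lie higher in the full-length than in the TAFH-deleted clones.

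The rescue clones differed among these genes. Npnt had 25.28 and 22.99 FPKM in the full-length clones and 0.425 and 1.92 FPKM in the TAFH-deleted clones, and Vsig1 had 28.5 and 28.8 FPKM in the full-length clones and under 0.1 FPKM in the TAFH-deleted ones. Stmn2 was between 0.0348 and 0.616 FPKM in all 4 clones, Gas6 between 0.0258 and 0.760 FPKM, and S1pr3 between 0.0553 and 2.00 FPKM. Stmn2, Gas6 and S1pr3 were thus low in the knockout and in all 4 clones.

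Small leucine-rich proteoglycans, which coat collagen fibrils and bind growth factors, were the gene list furthest below control. Of 11 listed genes 9 passed the filter, 8 of them lower and 7 at least 2-fold lower in the knockout. Their median difference was -1.74, against -0.03 over all genes tested. The counts of this and every later list stand beside 54.9% of all genes lower and 45.1% higher. Past 2-fold the shares over all genes were 5.76% lower and 0.798% higher. Omd, osteomodulin, had 2.10 and 1.66 FPKM in knockout and 19.1 and 19.7 FPKM in control. Prelp, which anchors basement membranes, had 2.72 and 2.74 FPKM in knockout and 16.4 and 16.5 FPKM in control. Bgn, biglycan, was the single member on the other side, with 135 and 134 FPKM in knockout and 115 and 114 FPKM in control. It had 91.3% of positions in use and 4364 and 4348 fragments in knockout against 4323 and 4317 in control, so its direction cannot be read from these values. A second list of 45 genes covered other structural matrix proteins. Of its 42 tested members 27 were lower and 15 higher, 10 past 2-fold on the lower side and 0 on the higher. The median was -0.18, or -1.27 without genes over 20% of positions in use. Over all 6835 tested genes under 20% of positions in use the median was -0.13. Each such list median below stands beside that value. Mfap5, a microfibril glycoprotein, had 3.36 and 4.26 FPKM in knockout and 47.5 and 47.1 FPKM in control. Col8a2, a short-chain collagen, had 0.475 and 0.393 FPKM in knockout and 10.2 and 10.7 FPKM in control. Col6a3, a chain of the beaded-filament collagen, had 7.13 and 6.96 FPKM in knockout and 28.6 and 28.8 FPKM in control.

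Among enzymes that cut or crosslink the matrix and inhibitors of such enzymes, 22 of 28 tested were higher and 6 lower, with 1 at least 2-fold each way and a median of 0.21. Serpine2, a protease inhibitor, had 4.998 and 4.67 FPKM in knockout and 0.0939 and 0.0937 FPKM in control. Ctsk, the collagen-cleaving protease cathepsin K, had 6.08 and 6.24 FPKM in knockout and 18.4 and 19.2 FPKM in control. Plod2, which hydroxylates collagen lysines for crosslinking, had 68.0 and 67.9 FPKM in knockout and 39.8 and 40.0 FPKM in control. Serpine2 alone was at least 2-fold higher and Ctsk alone at least 2-fold lower.

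**Figure D4:**
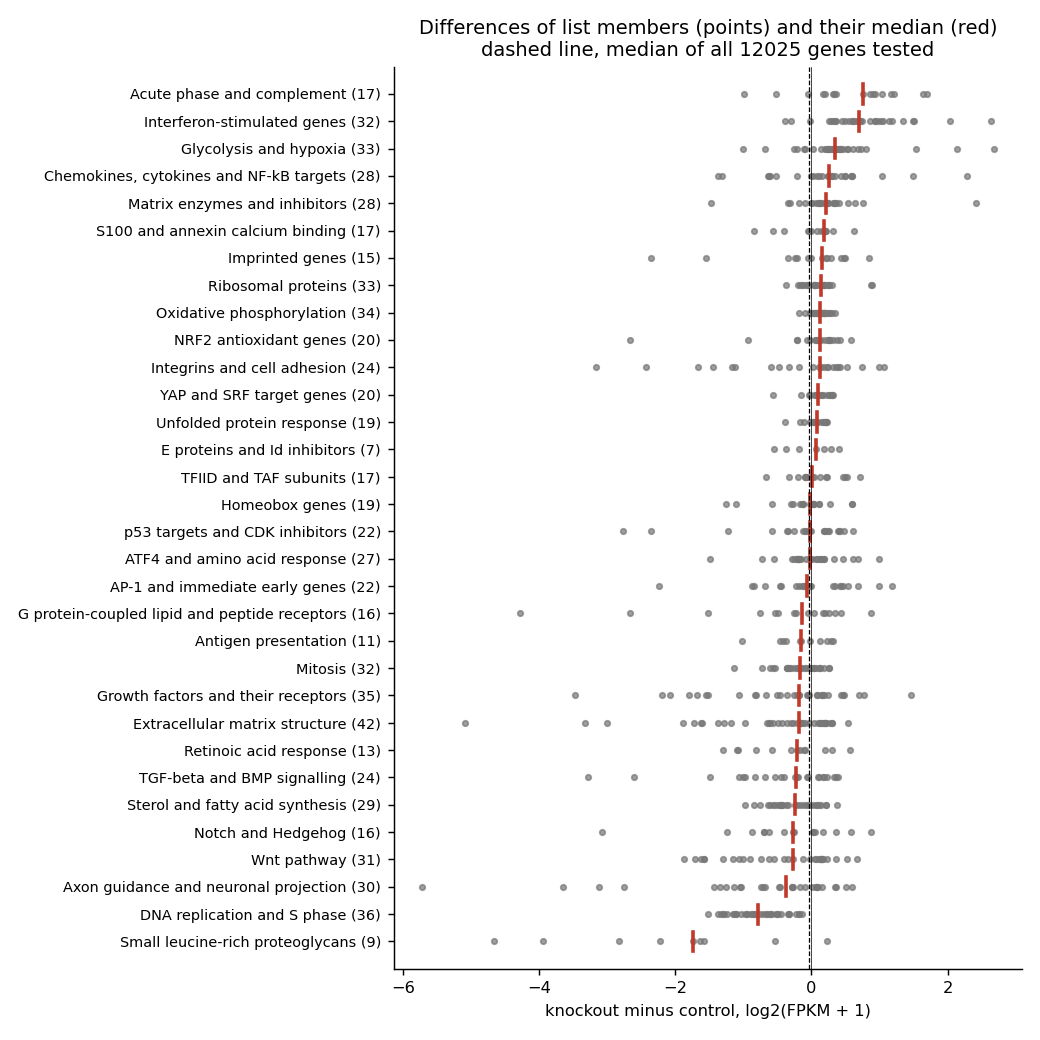
Difference between knockout and control, in log2(FPKM + 1), of the tested members (grey points, 1 per gene) of 32 gene lists, with the number tested in brackets and the median as a red bar. The small leucine-rich proteoglycans (-1.74) and the DNA replication genes (-0.79) lie lowest, and the acute phase genes (0.76) and interferon-stimulated genes (0.70) highest; the dashed line is the median of all genes.

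Among growth factors and their receptors 22 of 35 were lower and 13 higher; 8 lay past 2-fold on the lower side, 1 on the higher, and the median was -0.18, or -0.46 without genes over 20% of positions in use. Hgf, hepatocyte growth factor, had 0.265 FPKM in both knockout libraries and 4.45 and 5.12 FPKM in control, and Fgf10, a mesenchymal ligand for epithelial FGF receptors, had 8.52 and 9.17 against 32.9 and 33.6 FPKM. Fgfr3, an FGF receptor, had 1.47 and 1.38 FPKM in knockout and 9.04 and 9.45 FPKM in control. The single gene at least 2-fold higher was Pdgfb, a platelet-derived growth factor chain, with 24.2 and 25.6 FPKM in knockout and 8.08 and 8.70 FPKM in control. Of 24 TGF-beta and BMP pathway genes 16 were lower and 8 higher; 5 lay past 2-fold on the lower side and 0 on the higher, and the median was -0.23, or -0.71 without genes over 20% of positions in use. Grem1, a secreted BMP antagonist, had 7.15 and 8.05 FPKM in knockout and 82.1 and 82.7 FPKM in control. Gdf6, a BMP family ligand of joints, had 0.0812 FPKM in both knockout libraries and 5.71 and 5.44 FPKM in control. Inhbb and Fst, an activin chain and the activin antagonist follistatin, were also below control, at 3.02 and 3.13 against 10.5 and 10.4 FPKM and at 13.1 and 11.8 against 27.8 and 26.2 FPKM. These 4 genes, the furthest of the list, include ligands and antagonists.

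Wnt pathway genes were lower in 18 and higher in 13 of 31 tested, 9 past 2-fold on the lower side and 0 on the higher. Their median was -0.27. The count of 18 lower is near the share of 54.9% over all genes, of which 5.76% were at least 2-fold lower. With genes over 20% of positions in use left out, the median was -0.02, against -0.13 over all genes so chosen. Rspo2, a secreted R-spondin that strengthens Wnt signals, had 17.5 and 18 FPKM in knockout and 67.5 and 67.6 FPKM in control. Sfrp1, a secreted Wnt antagonist, had 15.6 and 15.9 FPKM in knockout and 50.4 and 50.2 FPKM in control. The co-receptor gene Lrp5 had 6.76 and 6.13 FPKM in knockout and 21.3 and 21.2 FPKM in control, and Tcf7, a transcription factor of the pathway, had 0.234 and 0.334 against 3.07 and 3.32 FPKM. These 4 genes span ligand helper, antagonist, receptor and effector, and each was at least 2-fold lower.

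Of 16 Notch and Hedgehog genes 9 were lower and 7 higher; 2 lay past 2-fold on the lower side and 0 on the higher. Their median of -0.27 turned to 0.02 when at least 5 FPKM was required, and was -0.40 without genes over 20% of positions in use. Hey1, a Notch target that encodes a repressor, had 0.506 and 0.371 FPKM in knockout and 11.4 and 10.8 FPKM in control. The receptor gene Notch3 lay the other way, with 7.74 and 8.02 FPKM in knockout and 3.70 and 4.002 FPKM in control. Among 13 genes of retinoic acid metabolism and response 10 were lower and 3 higher; 3 lay past 2-fold on the lower side and 0 on the higher, and the median was -0.22, or -0.82 without genes over 20% of positions in use. Cyp26b1, which breaks down retinoic acid, had 5.47 and 5.60 FPKM in knockout and 15.1 FPKM in each control library. Aldh1a1, which makes it, had 0.997 and 0.924 FPKM in knockout and 3.17 and 3.23 FPKM in control, so genes of both directions of this metabolism were below control.

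Axon guidance and neuronal projection genes were lower in 20 and higher in 10 of 30 tested, 10 past 2-fold on the lower side and 0 on the higher, with a median of -0.37, or -0.89 without genes over 20% of positions in use. Sema3d, a secreted semaphorin, had 1.49 and 1.43 FPKM in knockout and 20.3 and 20.5 FPKM in control. Gap43, a protein of growth cones, had 2.03 and 2.09 FPKM in knockout and 20.3 and 19.1 FPKM in control. The list of 17 neural and glial markers held 9 tested genes, 8 lower and 1 higher, 4 at least 2-fold lower. Its summed level was 63.0 and 64.5 FPKM in the knockout libraries and 165 and 161 FPKM in the control libraries, with Stmn2 and Gap43 as the furthest members. Sox2, a stem cell and neural progenitor factor, had 4.74 and 4.62 FPKM in knockout and 12.4 and 11.1 FPKM in control. Tubb3 and Mtap2, cytoskeletal proteins of neurons, had 7.42 and 7.91 against 14.5 and 13.4 FPKM and 7.24 and 7.58 against 18.02 and 18.39 FPKM. The adhesion molecules Ncam1 and L1cam had 27.1 and 27.5 against 22.9 and 23.1 FPKM and 9.63 and 9.24 against 9.80 and 10.2 FPKM. Of the 17 markers 8 were under 1 FPKM in all 4 libraries, and Nefl, Nefm and Sox10 were at 0.

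Adhesion genes did not lie on one side: of 24 tested 10 were lower and 14 higher; 6 lay past 2-fold on the lower side and 1, Icam1, on the higher. Cdh11, a cadherin of mesenchymal cells, had 4.83 and 5.05 FPKM in knockout and 30.6 and 31.3 FPKM in control. Cd34, a surface sialomucin of progenitor cells, had 1.22 and 1.07 FPKM in knockout and 17.9 and 18.5 FPKM in control. Icam1, a leukocyte adhesion receptor, had 1.65 and 1.97 FPKM in knockout and 0.347 FPKM in each control library. Among 16 receptors for lipids and peptides 9 were lower and 7 higher, 3 past 2-fold on the lower side and 0 on the higher. Besides S1pr3 these were Agtr2, an angiotensin receptor, with 0.330 and 0.355 FPKM in knockout and 7.79 and 7.20 FPKM in control, and Ptgfr, the prostaglandin F receptor, with 3.82 and 3.75 against 12.48 and 12.96 FPKM.

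Every tested gene of DNA replication and S phase was lower in the knockout. All 36 listed genes passed the filter and had both knockout libraries below both control libraries, 11 were at least 2-fold lower, and the differences spanned -1.52 to -0.13 with a median of -0.79. Over all genes 54.9% were lower, 5.76% at least 2-fold lower, and 49.6% had both knockout libraries below both control libraries. Cdc6, which loads the replicative helicase, had 3.33 and 3.15 FPKM in knockout and 11.2 and 11.1 FPKM in control. Cdt1, its partner in that loading, had 13.9 and 12.9 FPKM in knockout and 35.9 and 34.6 FPKM in control. Ccne2, cyclin E2 of S phase entry, had 8.49 and 8.77 FPKM in knockout and 24.3 and 23.7 FPKM in control, and Chaf1b, a chromatin assembly subunit, had 12.8 and 12.6 against 33.1 and 32.5 FPKM. The smallest difference was that of Rfc4, a clamp loader subunit, with 36.1 and 37.9 FPKM in knockout and 40.5 and 41.0 FPKM in control. The median level over the list was 22.7 and 22.1 FPKM in knockout and 36.3 and 36.7 FPKM in control. It was 18.4 and 17.6 FPKM in the full-length clones and 23.1 and 43.4 FPKM in the TAFH-deleted clones, so the full-length clones lay below the knockout and 1 TAFH-deleted clone above the control.

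Of 32 mitosis genes 22 were lower and 10 higher; 1 lay past 2-fold on the lower side and 0 on the higher, and the median was -0.16, or -0.10 without genes over 20% of positions in use. Aurkb, a kinase of the chromosomal passenger complex, had 17.8 and 18.4 FPKM in knockout and 41.1 and 40.6 FPKM in control. Ndc80, an outer kinetochore protein, had 20.3 and 20.1 FPKM in knockout and 34.4 and 33.5 FPKM in control. Inhibitors of the cycle were not uniformly higher: of 22 p53 targets and CDK inhibitors 12 were lower and 10 higher; 3 lay past 2-fold on the lower side and 0 on the higher. Cdkn1a, which encodes p21, had 2.61 and 2.69 FPKM in knockout and 7.34 and 7.72 FPKM in control. Cdkn1c, which encodes p57, had 0.159 FPKM in both knockout libraries and 5.33 and 4.59 FPKM in control. Perp, a p53 target of desmosomes, had 4.78 and 4.86 FPKM in knockout and 38.0 and 39.1 FPKM in control.

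E2F factors are known to drive many S phase genes. Their motif was searched as TTTCGCGC, TTTGGCGC, TTTCCCGC or TTTGGCGG on both strands, matches that may overlap each other, from 250 bases before to 50 bases after the start (RefSeq, GRCm38.p6). It was found in 14 of the 29 replication genes with a promoter in that table (48.3%). The share was 3.45% of the mitosis genes and 5.26% of all 9587 tested genes with a promoter. Among the 510 promoters of genes at least 2-fold lower in the knockout it was 6.67%, close to that of all genes. The promoters of the 4 replication genes with the largest differences among those with 1 annotated start and a match are shown with the match in capitals, to let the position and number of matches be seen.
Cdc6 (chr11:98907901-98908200, plus strand): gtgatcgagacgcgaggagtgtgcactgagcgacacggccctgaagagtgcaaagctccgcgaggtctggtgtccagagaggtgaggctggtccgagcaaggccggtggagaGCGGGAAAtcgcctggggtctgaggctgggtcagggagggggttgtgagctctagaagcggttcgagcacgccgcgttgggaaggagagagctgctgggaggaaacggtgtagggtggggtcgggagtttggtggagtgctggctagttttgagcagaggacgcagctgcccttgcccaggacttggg
Cdt1 (chr8:122567765-122568064, plus strand): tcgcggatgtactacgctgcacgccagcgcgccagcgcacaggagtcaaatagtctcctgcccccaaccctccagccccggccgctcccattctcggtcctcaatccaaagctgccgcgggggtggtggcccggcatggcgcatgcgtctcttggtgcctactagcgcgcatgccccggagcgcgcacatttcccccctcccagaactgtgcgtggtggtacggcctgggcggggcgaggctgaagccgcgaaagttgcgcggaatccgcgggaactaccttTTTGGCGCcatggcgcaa
Mcm6 (chr1:128359656-128359955, minus strand): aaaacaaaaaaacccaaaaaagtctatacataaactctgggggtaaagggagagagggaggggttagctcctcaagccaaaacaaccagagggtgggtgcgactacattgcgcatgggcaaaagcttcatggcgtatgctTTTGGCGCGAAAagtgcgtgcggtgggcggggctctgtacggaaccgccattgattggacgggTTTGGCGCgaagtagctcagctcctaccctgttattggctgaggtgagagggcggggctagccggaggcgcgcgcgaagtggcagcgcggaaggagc
Pola1 (chrX:93632106-93632405, minus strand): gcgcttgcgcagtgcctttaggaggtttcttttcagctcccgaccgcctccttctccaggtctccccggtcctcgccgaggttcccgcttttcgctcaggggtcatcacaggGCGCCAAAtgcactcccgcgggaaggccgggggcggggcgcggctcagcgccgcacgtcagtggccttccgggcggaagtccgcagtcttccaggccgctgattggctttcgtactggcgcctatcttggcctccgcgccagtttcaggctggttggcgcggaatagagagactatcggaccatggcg
Mcm6 holds 3 matches, of which 2 overlap, and the others hold 1 each. Mcm6, a helicase subunit, had 24.7 and 25.2 FPKM in knockout and 59.1 and 61.1 FPKM in control, and Pola1, the catalytic subunit of DNA polymerase alpha, had 6.79 and 7.33 against 16.9 and 16.5 FPKM. A match says that these letters are present, not that a factor binds.

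**Figure D5:**
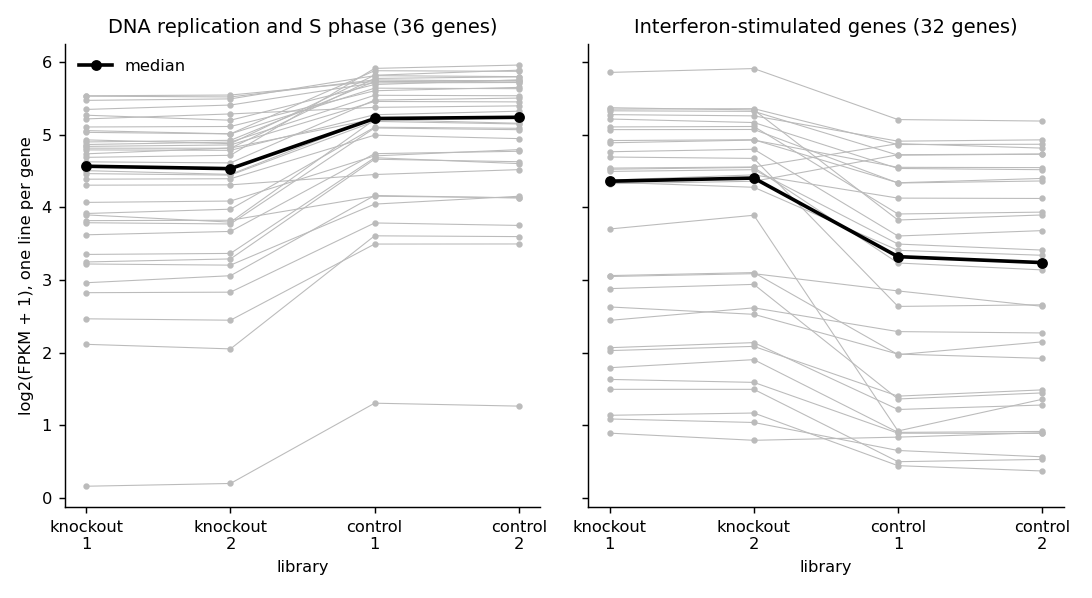
Level in log2(FPKM + 1) of 36 DNA replication genes (left) and 32 interferon-stimulated genes (right) in the 2 knockout and the 2 control libraries, with 1 grey line per gene and the median in black. All 36 replication genes are lower and 29 of the 32 interferon-stimulated genes are higher in the knockout.

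The 12 genes furthest above control differed by 1.65 to 3.17. Cpxm2, a carboxypeptidase-like secreted protein, had 9.18 and 9.41 FPKM in knockout and 0.140 FPKM in each control library. Slc16a3, a lactate exporter, had 19.4 and 19.6 FPKM in knockout and 2.15 and 2.25 FPKM in control, and Slc43a3, a purine base transporter, had 7.41 and 6.99 against 0.580 and 0.338 FPKM. Ccl20, a chemokine for CCR6-bearing lymphocytes, had 67.9 and 67.5 FPKM in knockout and 13.8 and 12.4 FPKM in control. Ifitm6 and Ifitm1, members of the interferon-induced transmembrane family, had 22.7 and 22.9 against 3.10 and 2.92 FPKM and 21.6 and 21.7 against 4.05 and 4.75 FPKM. Their abundant relative Ifitm3 had 134 and 135 FPKM in knockout and 105 FPKM in each control library. Apon, an apolipoprotein gene, had 7.55 FPKM in both knockout libraries and 1.43 and 2.00 FPKM in control. In the TAFH-deleted clones some of these genes lay far apart: Ifitm6 had 22.5 and 0.549 FPKM and Ccl20 13.7 and 0.414 FPKM, so for these genes the distance between the 2 clones exceeded that of knockout to control. One further gene cannot be read without its neighbour. Amd1, which makes the aminopropyl donor of polyamines, had 6.99 and 6.92 FPKM in knockout and 0.00214 and 0.00215 FPKM in control, under the worth of 1 fragment. It shares its locus with Amd2, and the 2 together had 7.45 and 7.27 FPKM in knockout and 6.25 and 5.87 FPKM in control, a difference of 0.24.

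Interferon-stimulated genes, which encode antiviral effectors and their regulators, were higher in the knockout in 29 and lower in 3 of 32 tested, 9 past 2-fold on the higher side and 0 on the lower, with a median of 0.70. Over all genes 45.1% were higher and 0.798% at least 2-fold higher. Usp18, a protease that removes ISG15 and dampens the interferon receptor, had 24.8 and 24.5 FPKM in knockout and 5.21 and 5.31 FPKM in control. Irf7, a transcription factor that amplifies the response, had 40.3 and 39.4 FPKM in knockout and 13.2 and 13.9 FPKM in control. The effectors Mx2 and Ifi27l2a had 6.36 and 6.67 against 1.57 and 1.72 FPKM and 12 and 13.8 against 0.895 and 1.56 FPKM. The 3 lower genes were Ifit2, Irf1 and Dhx58, and Dhx58 differed by -0.02. In the rescue clones the list median against the control was 0.60 and 0.30 with full-length TAF4 and 0.37 and -0.47 with the TAFH-deleted form, values that share the control sample with the 0.70 of the knockout. Antigen presentation genes, many of which are also induced by interferon, lay on both sides: of 11 tested 7 were lower and 4 higher. The single gene past 2-fold was Tap2, a peptide transporter subunit, which had 1.39 and 1.51 FPKM in knockout and 4.36 and 3.54 FPKM in control.

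The promoters of interferon-stimulated genes often hold the response element read by STAT and IRF factors. It was searched as TTTC and TTTC with any 2 bases between them, on both strands. It was found in 13 of the 22 list members with a promoter in the table (59.1%) and in 3.47% of all tested genes with a promoter. Among those at least 2-fold higher in the knockout the share was 14.1%. The genes at least 2-fold higher include 9 of the list, so that share is not separate from the share of the list. The 3 list members with the largest differences among those with 1 annotated start and a match are shown with the match in capitals.
Ifit1 (chr19:34640639-34640938, plus strand): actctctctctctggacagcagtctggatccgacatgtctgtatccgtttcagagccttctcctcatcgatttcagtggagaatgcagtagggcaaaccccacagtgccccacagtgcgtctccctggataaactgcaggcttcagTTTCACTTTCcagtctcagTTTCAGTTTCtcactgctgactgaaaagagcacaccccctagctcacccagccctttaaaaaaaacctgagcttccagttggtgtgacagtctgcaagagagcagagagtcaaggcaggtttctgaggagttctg
Ifih1 (chr2:62646206-62646505, minus strand): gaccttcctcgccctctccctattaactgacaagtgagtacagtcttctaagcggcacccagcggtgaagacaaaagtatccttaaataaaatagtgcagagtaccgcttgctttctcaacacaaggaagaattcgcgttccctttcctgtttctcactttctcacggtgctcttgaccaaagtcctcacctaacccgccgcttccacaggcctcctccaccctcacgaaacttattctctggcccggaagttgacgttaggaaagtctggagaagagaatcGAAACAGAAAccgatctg
Oas1a (chr5:120907476-120907775, minus strand): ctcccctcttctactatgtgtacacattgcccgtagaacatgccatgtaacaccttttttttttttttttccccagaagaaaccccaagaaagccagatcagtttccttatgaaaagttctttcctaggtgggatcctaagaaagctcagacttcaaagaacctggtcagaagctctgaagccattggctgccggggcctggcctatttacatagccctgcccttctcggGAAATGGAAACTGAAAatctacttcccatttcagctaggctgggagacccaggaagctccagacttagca
Ifit1, an RNA-binding effector, had 33.4 and 33.5 FPKM in knockout and 14.0 and 14.3 FPKM in control. Ifih1, the RNA sensor MDA5, had 21.5 and 21.9 FPKM in knockout and 10.3 and 9.63 FPKM in control. Oas1a, an oligoadenylate synthetase, had 7.34 and 7.58 FPKM in knockout and 2.93 and 3.43 FPKM in control. The match lies before the start in Ifit1 and Oas1a and after it in Ifih1.

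Acute phase and complement genes had a median of 0.76, the highest of the 32 pathway lists. Of 17 tested 14 were higher and 3 lower, 5 past 2-fold on the higher side and 0 on the lower. TAFH-deleted clone 1 lay at a list median of -0.42 against control, and clone 2 of that form at -2.71. These 2 values are further apart than the 0.76 between knockout and control. With full-length TAF4 the list stood at 0.62 for clone 1 and at 0.18 for clone 2. Each of these medians shares the control sample. Cfb, complement factor B, had 12.8 and 13.4 FPKM in knockout and 3.45 and 3.25 FPKM in control. Orm2, an orosomucoid, had 24.6 and 25.2 FPKM in knockout and 7.12 and 7.504 FPKM in control, and Steap4, a metal reductase, had 61.6 FPKM in both knockout libraries and 26.5 and 25.4 FPKM in control. Steap4 had 24.6 and 0.441 FPKM in the TAFH-deleted clones, so here too the distance between the clones was the larger. Chemokines, cytokines and NF-kB targets were higher in 20 and lower in 8 of 28 tested, 3 past 2-fold on the higher side and 2 on the lower, with a median of 0.25. That median came to 0.0055 when genes over 20% of positions in use were left out. Nos2, inducible nitric oxide synthase, had 16.7 and 15.9 FPKM in knockout and 5.17 and 5.16 FPKM in control. Il1rl1, the interleukin 33 receptor, had 37.5 and 37.8 FPKM in knockout and 99.5 and 99.3 FPKM in control, and Il34, a ligand of the CSF1 receptor, had 1.11 and 1.51 against 4.42 and 5.06 FPKM.

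Glycolysis and hypoxia genes were higher in 27 and lower in 6 of 33 tested, 3 past 2-fold on the higher side and 0 on the lower, with a median of 0.35. Car9, a carbonic anhydrase induced by low oxygen, had 20.8 and 21.3 FPKM in knockout and 3.80 and 4.25 FPKM in control. Egln3, a prolyl hydroxylase that senses oxygen, had 2.43 and 2.62 FPKM in knockout and 0.211 and 0.210 FPKM in control. The third gene past 2-fold was Slc16a3, given above. Pfkp, the platelet form of phosphofructokinase, lay the other way, at 3.78 and 3.96 FPKM in knockout and 8.85 and 8.60 FPKM in control. The core ACGTG of the hypoxia response element is also part of the E-box CACGTG. This core was found on either strand in 22 of 31 of these promoters (71.0%), against 29.7% of all. Among the 71 promoters of genes at least 2-fold higher in the knockout the share was 16.9%, below that of all.

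TFIID subunits themselves stayed within 2-fold: of 17 tested 8 were lower and 9 higher, with differences from -0.66 to 0.71. Taf13, which pairs with TAF11, had 35.8 and 36.4 FPKM in knockout and 21.4 and 21.9 FPKM in control. Taf8, which pairs with TAF10, had 10.7 and 10.4 FPKM in knockout and 17.0 and 17.5 FPKM in control. Taf5, a scaffold subunit, had 13.5 FPKM in both knockout libraries and 8.90 and 9.31 FPKM in control. Of the 7 genes for E proteins and their Id inhibitors 3 were lower and 4 higher, with none at least 2-fold different.

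E proteins bind the E-box CANNTG, so its letters were counted in the promoters of the genes that differed. The motif is its own reverse complement, and its forms include CAGCTG and CACCTG. It was found in 70.8% of the 510 promoters of genes at least 2-fold lower, in 74.6% of the 71 of genes at least 2-fold higher and in 65.9% of all tested genes. The share in lower genes is thus close to that of all genes and to that of the higher genes. The promoters of 2 of the 15 genes furthest below control that have 1 annotated start and a match are shown, with the match in capitals.
Fmod (chr1:134037004-134037303, plus strand): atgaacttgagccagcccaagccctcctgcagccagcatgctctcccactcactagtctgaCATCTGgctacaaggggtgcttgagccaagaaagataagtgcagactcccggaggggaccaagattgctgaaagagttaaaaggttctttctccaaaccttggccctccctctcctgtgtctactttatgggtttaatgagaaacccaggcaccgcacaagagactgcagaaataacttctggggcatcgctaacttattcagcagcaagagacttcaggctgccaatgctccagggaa
S1pr3 (chr13:51408368-51408667, plus strand): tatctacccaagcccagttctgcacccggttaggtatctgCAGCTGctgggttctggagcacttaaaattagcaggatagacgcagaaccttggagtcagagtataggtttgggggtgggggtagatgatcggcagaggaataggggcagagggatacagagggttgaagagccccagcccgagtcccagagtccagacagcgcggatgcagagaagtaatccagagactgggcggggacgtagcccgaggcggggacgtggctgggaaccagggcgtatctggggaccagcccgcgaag
The single match in S1pr3 is CAGCTG, a form found in 102 of the 510 promoters of lower genes and in 17.3% of all. The TATA letters TATAAA, anywhere in the window and on either strand, were found in 12.9% of the lower, 18.3% of the higher and 8.65% of all promoters.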

How the data were processed

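RNA of 8 libraries was sequenced, and per the submitters' processing notes the reads were handled with CASAVA 1.8, TopHat, Cufflinks and Cuffdiff on the mm9 build; versions and options of the last 3 are not given in the sources used here, nor is strandedness. The authors deposited FPKM for 30028 RefSeq transcripts in each library, with transcript lengths per the file headers, and with the p-value and q-value of the authors' own Cuffdiff comparisons, of which only counts of calls are quoted. Deposited loci start at 0 and are given here counted from 1.

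FPKM of the transcripts of a gene were summed per chromosome. A gene was kept if 2 or more of the 8 libraries reached 1 FPKM and its longest transcript had 300 bases or more: 12025 of 23281, of which 162 passed only through the rescue clones. Whole fragments were recovered from FPKM steps for 100% of low values, within 0.05 fragments, after taking 204.1 bases from the length. These gave depth, the chi-square of pairs and the share of positions in use. A pseudocount of 1 FPKM was used. Since each pair counted as 1 sample, limma 3.58.1 (trend, R 4.3.3, two-sided, Benjamini-Hochberg) was fitted to 6 samples with 2 residual and 2.15 prior degrees of freedom, and lone samples were assumed to vary like the rescue clones. Whether libraries stem from different cultures is not in the labels, and the p-values reflect the spread of these clones alone, which may be technical. The procedure was tested on simulated data.

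The comparison, the gene lists and the rules were chosen with earlier results of these data known. Genes named are the 15 furthest below and 12 furthest above control with a mean of at least 5 FPKM and no overlap, leaving out predicted and small RNA genes, and some of the 4 members of each list with the largest differences, beside marker genes. Bgn, Pdgfb, Icam1, Rfc4, Ifit2, Irf1, Dhx58, Ifitm3, Sox2, Sox9, Fabp4, Plin2, Cebpa, Col1a2, Col3a1 and the genes whose promoters are shown were named after their values were seen. Promoters are RefSeq sequences of 300 bases on GRCm38.p6, searched by letters and matched by symbol for 9587 of the 12025 genes. Genes on chromosome 18 were left out when the sequences to show were chosen. A low listed value may be a failed estimate: Gapdh, which every cell uses, was listed at a mean of 0.361 FPKM in knockout and 0.253 FPKM in control.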

Additional observations from a re-analysis of the deposited data

How the results depend on the processing

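The count of genes at least 2-fold lower was 693, and it was 448 when at least 5 FPKM was required, 448 after quantile normalization and 201 with a pseudocount of 5. The count at least 2-fold higher was 96, and it was 202 with a pseudocount of 0.1, 25 with a pseudocount of 5, 273 after quantile normalization and 180 when the median of the level group was subtracted, an alternative chosen after seeing the data. The share of higher genes among those past 2-fold was 12.2%, against 37.9% after quantile normalization and 27.5% with the level group subtracted. Without each knockout or control library in turn the counts were 685 to 703 lower and 92 to 102 higher.

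The limma count of 0 lower and 0 higher genes was 177 and 36 without a filter, 7 and 8 with short transcripts kept, 44 and 1 among genes under 20% of positions in use, and 1724 and 1133 with each of the 8 libraries counted. Without 1 library or clone at a time it ran from 0 to 1717 lower and from 0 to 1001 higher, and the calls came with a TAFH-deleted clone left out. With knockout and control libraries alone it was 5383 and 4250 with the replicate number as a block and 5343 and 4219 without it. The replicate numbers do not pair the samples: same-numbered libraries deviated with a correlation of -0.01. The cause of these changes was not tested. The median of the Notch and Hedgehog list turned to 0.0228 at 5 FPKM or more, and Taf4b turned to 0.15 after quantile normalization and to 0.0768 with the level group subtracted. The medians of the replication list (-1.10 to -0.64) and the interferon list (0.41 to 0.98) kept their direction under all alternatives run. Depth limits genes near 0: a transcript of 2 kilobases had 0.0376 FPKM per fragment in knockout.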

Other observations

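Sterol and fatty acid synthesis genes were lower in 21 and higher in 8 of 29 tested, with 0 past 2-fold either way and a median of -0.24, or -0.38 without genes over 20% of positions in use. Srebf1, a transcription factor of lipid synthesis, had 17.1 and 16.5 FPKM in knockout and 29.2 FPKM in each control library. The letters CCAAT were found in 16 of 19 of these promoters (84.2%), against 43.5% of all. The share is not particular to this list: it was 94.1% for the unfolded protein response genes and 75.9% for the mitosis genes. Other lists had less, such as 20.8% for the axon guidance genes. Among promoters of genes at least 2-fold lower in the knockout the share was 41.0%. Among NRF2 antioxidant genes 6 of 20 were lower and 14 higher, but Gsta4, a glutathione transferase, had 2.06 and 1.88 FPKM in knockout and 17.3 and 18.6 FPKM in control. Of 10 adipocyte markers 4 were tested, 1 lower and 3 higher. The lower one was Pparg, the adipocyte nuclear receptor, with 4.49 and 3.71 FPKM in knockout and 23.9 and 23.4 FPKM in control. Fabp4, a fatty acid carrier of adipocytes, had 53.9 and 51.3 against 51.7 and 52.1 FPKM. Plin2 and Cebpa had 68.0 and 67.3 against 54.8 and 53.9 FPKM and 1.69 and 1.75 against 1.19 and 1.42 FPKM.

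Immediate early genes lay on both sides, 13 of 22 lower and 9 higher. Fos, an AP-1 subunit, had 22.8 FPKM in both knockout libraries and 9.26 and 9.73 FPKM in control. Klf2 had 2.60 and 3.14 FPKM in knockout and 18.2 and 16.5 FPKM in control. Of 15 imprinted genes 7 were lower and 8 higher. Igf2, a fetal growth factor, had 0.136 and 0.0968 FPKM in knockout and 2.31 and 2.24 FPKM in control, and H19, the noncoding RNA beside it, had 18.1 and 18.3 against 9.23 and 10.2 FPKM. Igf2, H19 and Srebf1 share their loci with other genes of the table, so their values are less certain. Homeobox genes had 10 lower and 9 higher of 19 tested, with Meis2 and Meis1 past 2-fold lower, at 6.74 and 6.14 against 16.6 and 17.0 FPKM and at 1.23 and 0.980 against 3.52 and 3.57 FPKM.

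Small median differences were found in 6 further lists, beside a median of 0.12 in the highest of the 8 level groups. Of the oxidative phosphorylation genes 30 of 34 were higher (median 0.13), of the ribosomal protein genes 25 of 33 (0.14), of the unfolded protein response genes 15 of 19 (0.08) and of the YAP and SRF targets 16 of 20 (0.09). The ribosomal protein genes were listed at a median of 18.2 and 17.7 FPKM in knockout and 15.96 and 16.44 FPKM in control, where the level groups had medians of -0.10 and -0.05. For S100 and annexin genes 11 of 17 were higher, and for ATF4 target genes 13 of 27, with medians of 0.19 and -0.02. None of these lists had a gene past 2-fold except Vldlr, a lipoprotein receptor in the ATF4 list, with 2.88 and 2.75 FPKM in knockout and 9.37 and 9.99 FPKM in control.

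Both lines expressed the Y-linked gene Ddx3y, at 38.5 and 39.5 FPKM in knockout and 41.3 and 41.7 FPKM in control. Cartilage and bone markers were lower in 6 and higher in 4 of 10 tested. Col2a1 is given above, and Sox9, the master factor of cartilage, had 11.51 and 10.96 FPKM in knockout and 7.79 and 7.73 FPKM in control. Of 12 skeletal muscle markers 10 were under 1 FPKM in all 4 libraries, with Myog, Pax3 and Pax7 at 0. The 2 tested genes, Acta1 and Tnnc1, were both higher. Acta1 had 3.08 and 2.97 FPKM in knockout and 0.896 and 0.894 FPKM in control, and Tnnc1 10.96 and 13.67 against 6.39 and 5.44 FPKM. Smooth muscle markers had 4 lower and 3 higher of 7 tested. By chromosome, the median difference ran from -0.19 on chromosome 1 to 0.12 on the X chromosome.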
